A study of Homo sapiens with 8 samples.

Results

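The RNA of 47 translation initiation, elongation and termination factors was measured in OVCAR3 cells, a human ovarian cancer line. The genes were listed by symbol, and a count row was taken for a listed gene where its transcript identifiers mapped to that symbol. Of the 47 listed genes, 46 were found among 20165 rows, and EIF2B5 is not analysed here. The 8 libraries were total RNA depleted of rRNA, taken from lysates prepared for ribosome profiling, with 2 libraries in each of 4 groups. In siControl cells a control siRNA was transfected, and in siTARG1 cells an siRNA against OARD1, the gene of the ADP-ribose hydrolase TARG1, each at 30 nM for 48 h. Which of the TARG1 siRNAs listed by the study was used in these libraries, and whether the siControl cells are the parental stock of the RACK1 lines, is not given in the sources used here. RACK1-WT and RACK1-Mut cells were OVCAR3 lines transduced with lentiviruses and selected with antibiotics, and both received Dox at 1 µg/ml for 48 h. In both lines Dox induced an shRNA against endogenous RACK1 together with HA-tagged RACK1, either wild type or with the MAR acceptor residues D144, E145 and D203 mutated. Ribosome footprints are not used here: the values are RNA levels and say nothing of translation rates.

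Initiation begins when eIF2 brings the initiator tRNA to the small ribosomal subunit, which carries eIF1, eIF1A and the large scaffold eIF3, while eIF2B reloads eIF2 with GTP. The eIF4 factors bind the cap and unwind the leader, and eIF5, eIF5B and the subunit joining step commit the ribosome to a start codon. In elongation eEF1A delivers tRNAs and eEF2 moves the ribosome, and at a stop codon the release factors and the recycling factors free the peptide and split the subunits. Several of these factors are encoded by mRNAs that begin with a run of pyrimidines, the terminal oligopyrimidine (TOP) motif, through which mTOR signalling controls their translation.

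Start-site sequences are shown for the 5 TOP factors with a window that held the run of pyrimidines counted below. EIF3B and DENR, which moved in opposite directions in siTARG1 cells, are shown with them. Each line runs from 10 bases before the annotated RNA start to 20 bases into the RNA, is taken from RefSeq on GRCh38.p14 (the count tables use GRCh37), and marks runs of at least 5 C or T in capitals.
EEF1A1: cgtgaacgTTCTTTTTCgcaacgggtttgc
EEF2: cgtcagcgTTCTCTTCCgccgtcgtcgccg
EEF1B2: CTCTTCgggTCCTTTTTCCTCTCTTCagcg
EIF3F: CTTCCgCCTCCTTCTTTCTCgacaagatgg
EIF4B: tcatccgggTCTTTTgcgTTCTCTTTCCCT
EIF3B: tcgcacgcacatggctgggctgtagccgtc
DENR: aaggctcattgtctcgcgggagcgctgctg
The windows lie at chr6:73521013-73521042 (EEF1A1, minus strand), chr19:3985444-3985473 (EEF2, minus strand), chr2:206159885-206159914 (EEF1B2, plus strand), chr11:7987327-7987356 (EIF3F, plus strand), chr12:53006446-53006475 (EIF4B, plus strand), chr7:2354817-2354846 (EIF3B, plus strand) and chr12:122752814-122752843 (DENR, plus strand).
A C followed by at least 4 further C or T, on the RNA strand and within the part of the window from 5 bases before to 10 bases after the start, occurred in 5 of 7 windows of the TOP factors matched (71.4%). It occurred in 11 of 47 windows of the other listed genes (23.4%) and in 21.1% of the 35116 RefSeq start windows in the table. EEF1G held no such run at its annotated start, nor did another annotated start of EEF1B2 that is not shown. A match describes letters only, and 39 of the 47 listed genes had a window, some of them more than 1.

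Exon counts per library ranged from 30989049 to 42668783, and the translation factors took between 3.831% and 4.462% of them. The siRNA target OARD1 had 48.5 and 52.0 counts scaled to a common library size (CPM) in siControl cells and 3.11 and 3.98 CPM in siTARG1 cells. RACK1 had 4622 and 4516 CPM in siControl, 1762 and 1898 CPM in RACK1-WT and 1397 and 1454 CPM in RACK1-Mut cells. The defining markers of the line, PAX8, MUC16, EPCAM and MSLN among them, were detected in every library, while of the markers of other cell types CD3E, DCN and PTPRC reached at most 0.8 CPM and COL1A1 had 4.81 to 7.47 CPM in all 8 libraries. Of the 8 line markers, 5 passed the test in siTARG1 against siControl cells, where 46.6% of the 14024 genes tested passed. KRT8 fell from 1195 and 1130 CPM to 554.5 and 544.2 CPM, and CDH1 rose from 104.9 and 105.5 CPM to 296.5 and 297.3 CPM. In RACK1-WT against siControl cells 7 of the 8 passed, 4 higher and 3 lower, where 63.3% of all genes tested passed. MSLN had 23.4 and 21.4 CPM in siControl and 160.9 and 174.9 CPM in RACK1-WT cells. KRT7 had 172.9 and 144.8 CPM against 527.5 and 576.0 CPM. The part of these shifts in the results below was not tested.

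Per kilobase of exon, EEF1A1 stood far above all other factors, with a mean of 4457 CPM per kb in siControl cells. EEF2 followed with 934.9, EEF1B2 with 647.8, EIF3K with 626.2 and EEF1G with 570.1 CPM per kb. The EEF1G row is joined with TUT1 and was divided by the joined length of 6912 bases. Its value and rank are therefore not those of EEF1G alone, which could stand higher. The lowest were EEF1A2 with 0.0144, EIF5B with 8.67 and EIF2B4 with 9.80 CPM per kb. By these row lengths EEF1A1 ranked first, EEF2 second and EEF1A2 last in all 4 groups. Summed by step, the elongation factors held 30850 and 30720 CPM in the siControl libraries, the eIF3 subunits 5791 and 5896 CPM, and the eIF4 factors 4894 and 4899 CPM.

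The first comparison asked how loss of TARG1 changed the RNA of the translation machinery. In siTARG1 cells 8 of 46 translation factors rose and 11 fell relative to siControl cells, with a median log2 fold change over the 46 of -0.038. Across all 14024 genes tested 46.6% were called, 23.5% higher and 23.1% lower, and the median was 0.0073, so the 19 factors called were no larger a share than genes in general. One of the 8 rises is EEF1A2, which had 1 count in each siControl library and entered the test only through the groups where it is high. With at least 10 counts required in every library it was not tested, and 7 factors rose and 11 fell. A call means an adjusted p under 0.05 (Benjamini-Hochberg over all genes) in edgeR's quasi-likelihood test, and errors on log2 fold changes are standard errors from that fit. The libraries of the groups did not overlap for 34 factors, 13 higher and 21 lower, against 70% of all genes (35.8% higher and 34.2% lower). With the authors' RPKM and limma 9 factors passed, 5 higher and 4 lower, and after centring each library on its median gene 18 passed, 7 higher and 11 lower. In bulk RNA, fewer cells expressing a gene and less RNA per cell cannot be told apart.

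Of 13 eIF3 subunits 5 fell and none rose, against 23.1% of all genes lower. EIF3B, a core subunit of the complex (chr7:2393721-2420380, GRCh37), had 137.3 and 136.6 CPM in siControl and 83.1 and 82.9 CPM in siTARG1 cells. Its log2 fold change was -0.72 ± 0.063 (edgeR adjusted p = 5.83e-07), and it was -0.73 in coding-sequence reads and -0.66 in 3′ UTR reads taken apart. EIF3J, a loosely bound subunit that acts near the mRNA channel, had 106.7 and 122.4 CPM in siControl and 66.4 and 77.0 CPM in siTARG1 cells. Both siTARG1 libraries lay below both siControl libraries for each gene, and the change of EIF3J was -0.68 ± 0.085 (edgeR adjusted p = 1.86e-05). EIF3I, a neighbour of EIF3B in the complex, had 485.1 and 452.0 CPM against 396.3 and 353.6 CPM, a change of -0.32 ± 0.073 (edgeR adjusted p = 0.00254). The other falls were smaller and rested on single libraries.

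EIF3M, another core subunit, had 813.0 and 842.1 CPM in siControl and 685.0 and 720.9 CPM in siTARG1 cells, with a log2 fold change of -0.24. EIF3K, a peripheral subunit, had 918.4 and 947.5 CPM against 803.1 and 807.2 CPM, a change of -0.21. The groups did not overlap for either gene, yet EIF3M lost its call without siControl replicate 2 (-0.20) and without siTARG1 replicate 1 (-0.20), and EIF3K lost it without siControl replicate 1 (-0.22), siControl replicate 2 (-0.18) or siTARG1 replicate 1 (-0.21). The 8 eIF3 subunits that were not called, EIF3A, EIF3C, EIF3D, EIF3E, EIF3F, EIF3G, EIF3H and EIF3L, had log2 fold changes between -0.085 and 0.0044. Summed over the 13 subunits, eIF3 RNA was 5791 and 5896 CPM in siControl and 5313 and 5344 CPM in siTARG1 cells, lower in both siTARG1 libraries. EIF3C shares nearly all of its sequence with EIF3CL, and their counts cannot be separated.

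**Figure D1:**
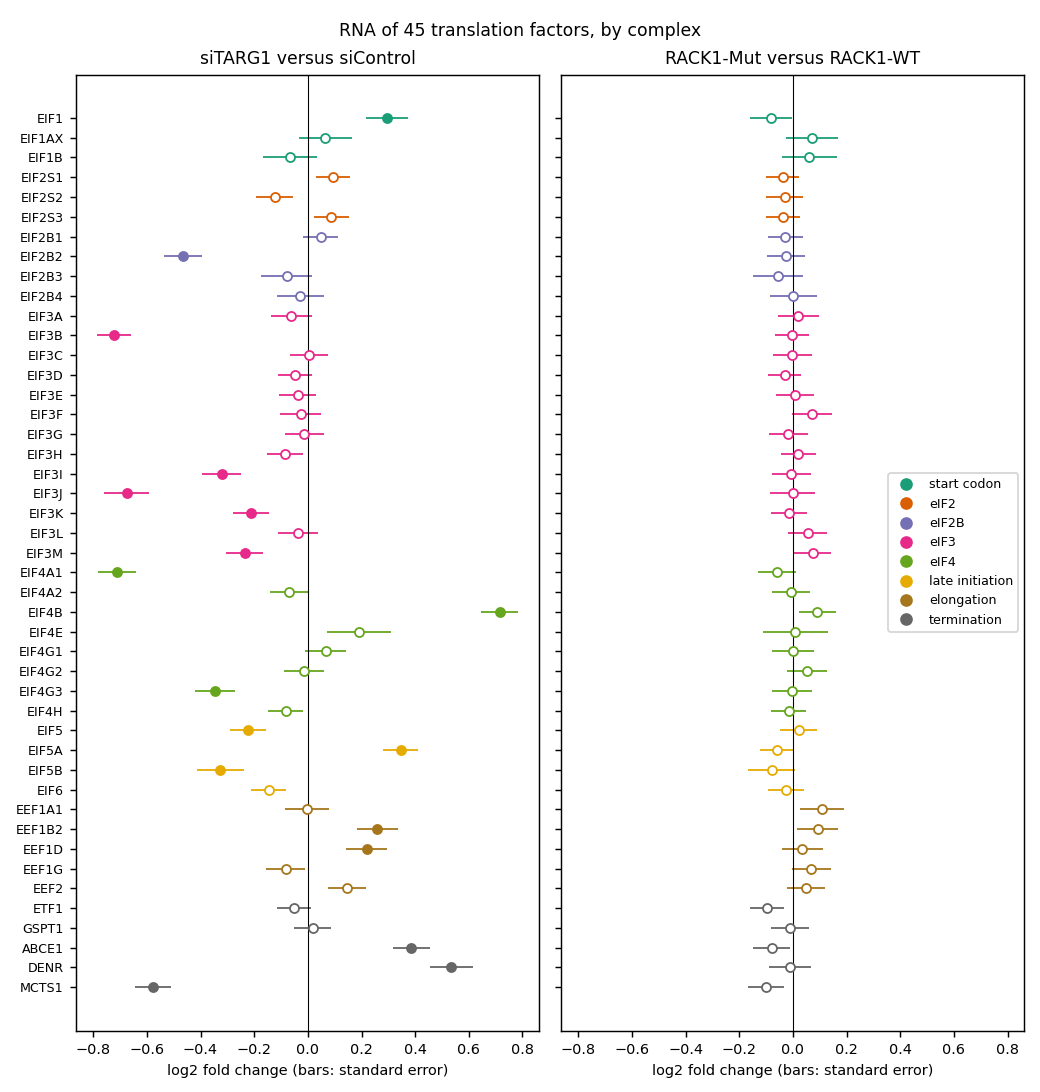
Log2 fold changes (horizontal axis) of 45 translation factors, grouped by complex on the vertical axis, in siTARG1 against siControl cells (left) and RACK1-Mut against RACK1-WT cells (right), with bars for the standard error and filled points for factors past an adjusted p of 0.05 in edgeR. EEF1A2 is left out because its siControl counts were 1 per library. The filled points on the left run from -0.72 (EIF3B) to 0.72 (EIF4B), and no point on the right is filled.

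Within the eIF4 group EIF4B rose, and EIF4A1 and EIF4G3 fell. EIF4B, a cofactor that stimulates the eIF4A helicase (chr12:53400066-53435999, GRCh37), had 898.0 and 958.1 CPM in siControl and 1482 and 1565 CPM in siTARG1 cells, with a log2 fold change of 0.72 ± 0.069 (edgeR adjusted p = 1.59e-06). The rise stood in coding-sequence reads (0.63) and 3′ UTR reads (0.86), and the libraries were well apart. The other TOP factors of the initiation steps, EIF3E, EIF3F and EIF3H, were not called, with log2 fold changes of -0.038, -0.027 and -0.085.

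EIF4A1, the main helicase, had 1214 and 1120 CPM in siControl and 741.6 and 683.8 CPM in siTARG1 cells, with a log2 fold change of -0.71 ± 0.072 (edgeR adjusted p = 2.47e-06). Its row joins EIF4A1 with SENP3 and their readthrough transcript, and 17.6% of its exon reads fall in a single kind of region. Reads assigned to coding sequence alone were few, 62.93 and 65.0 CPM of the joined row in siControl cells. Their change was -0.0030 (edgeR adjusted p = 0.981), which cannot show whether EIF4A1 coding reads fell. The 3′ UTR reads went from 147.2 and 130.3 CPM to 66.95 and 62.61 CPM. The fall is given for the joined row, and its share from EIF4A1 was not tested. EIF4A2, the second helicase, had 553.3 and 567.7 CPM against 514.9 and 552.7 CPM and was not called (-0.071).

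EIF4G3, a paralog of the scaffold EIF4G1, had 120.0 and 123.7 CPM in siControl and 91.5 and 100.2 CPM in siTARG1 cells, with a log2 fold change of -0.35 ± 0.075 (edgeR adjusted p = 0.0018). EIF4G1 itself (0.066), the related EIF4G2 (-0.015), the cap-binding EIF4E (0.19) and the helicase cofactor EIF4H (-0.083) were not called. Without siControl replicate 2 or siTARG1 replicate 1, EIF4E was called as higher.

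Among factors that load and reload the initiator tRNA, EIF2B2 alone was called. This subunit of the exchange factor eIF2B had 96.0 and 89.7 CPM in siControl and 69.2 and 65.4 CPM in siTARG1 cells, with a log2 fold change of -0.47 ± 0.070 (edgeR adjusted p = 9.99e-05). EIF2B1 (0.047), EIF2B3 (-0.079) and EIF2B4 (-0.028), and the eIF2 subunits EIF2S1 (0.093), EIF2S2 (-0.12) and EIF2S3 (0.088), were not called, although without siTARG1 replicate 2 EIF2S2 passed as lower. EIF1, which guards start codon choice, had 100.9 and 93.9 CPM against 121.4 and 117.9 CPM, a rise of 0.30 on the log2 scale that was lost without siControl replicate 2 (0.25). EIF1AX (0.065) and EIF1B (-0.066) were not called, although EIF1AX passed as higher without siTARG1 replicate 1.

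Of the 4 factors listed under late initiation, EIF5A was higher and the other 3 had negative values. EIF5A, counted here and not among the elongation factors, carries the hypusine residue and helps ribosomes through difficult peptide bonds. It had 312.8 and 306.0 CPM in siControl and 389.5 and 396.9 CPM in siTARG1 cells, with a log2 fold change of 0.35 ± 0.064 (edgeR adjusted p = 0.00053). EIF5, which triggers GTP hydrolysis on eIF2, had 285.2 and 296.9 CPM against 239.9 and 258.8 CPM, a change of -0.22. EIF5B, the GTPase of subunit joining, had 49.0 and 51.3 CPM against 36.2 and 43.8 CPM, a change of -0.33. The groups did not overlap for any of the 3 genes, but the call was lost for EIF5 without siControl replicate 2 (-0.19) or siTARG1 replicate 1 (-0.17), and for EIF5B without the same libraries (-0.29 and -0.19). EIF6, which keeps large subunits from joining early, was not called (-0.15).

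The recycling partners DENR and MCTS1 moved in opposite directions. The proteins form a heterodimer that removes tRNA from the small subunit after termination and takes part in reinitiation. DENR (chr12:123237371-123255611, GRCh37) had 115.1 and 125.5 CPM in siControl and 162.1 and 186.5 CPM in siTARG1 cells, with a log2 fold change of 0.54 ± 0.079 (edgeR adjusted p = 8.32e-05). MCTS1 (chrX:119727865-119755014, GRCh37) had 73.8 and 73.7 CPM against 49.6 and 49.2 CPM, a change of -0.58 ± 0.067 (edgeR adjusted p = 9.19e-06). The ratio of DENR to MCTS1 CPM was 1.56 and 1.7 in the siControl libraries and 3.27 and 3.79 in the siTARG1 libraries. Coding-sequence and 3′ UTR reads gave the same directions for both genes, 0.51 and 0.55 for DENR and -0.58 and -0.58 for MCTS1.

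ABCE1, the ATPase that splits ribosomes, had 122.2 and 117.0 CPM in siControl and 150.4 and 162.3 CPM in siTARG1 cells, with a log2 fold change of 0.39 ± 0.069 (edgeR adjusted p = 0.000397). The release factors ETF1, which reads the stop codon, and GSPT1, its GTPase partner, were not called (-0.051 and 0.019).

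Of 6 elongation factors EEF1B2 and EEF1D rose, and EEF1A2 is given by its counts. EEF1B2 and EEF1D are subunits of the exchange complex that recharges eEF1A. EEF1B2 had 694.5 and 754.1 CPM in siControl and 819.0 and 914.9 CPM in siTARG1 cells (log2 fold change 0.26), and EEF1D had 225.4 and 238.8 CPM against 267.1 and 273.1 CPM (0.22). Both calls were lost without siControl replicate 1 (0.21 for EEF1B2 and 0.19 for EEF1D) and without siTARG1 replicate 2 (0.17 and 0.19). The third subunit, EEF1G (-0.083), and EEF1A1 (-0.0031) and EEF2 (0.15) were not called, and the summed elongation factor RNA was 30850 and 30720 CPM in siControl and 30810 and 31210 CPM in siTARG1 cells.

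EEF1A2, the eEF1A paralog of muscle and neurons, had 1 count in each siControl library and 14 and 13 counts in the siTARG1 libraries. Scaled to library size the ratio was 11.3, with an exact 95% interval of 2.84 to 98.2 that covers counting error only. Both groups remained far below EEF1A1, which had 22600 to 23160 CPM in the siTARG1 libraries, and reads of the paralogs can be assigned to either gene. For the 18 other factors called in this comparison, coding-sequence and 3′ UTR reads taken apart gave the same sign in all 18. The row joined to EIF4A1, with its few coding-sequence reads, was the exception in size.

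**Figure D2:**
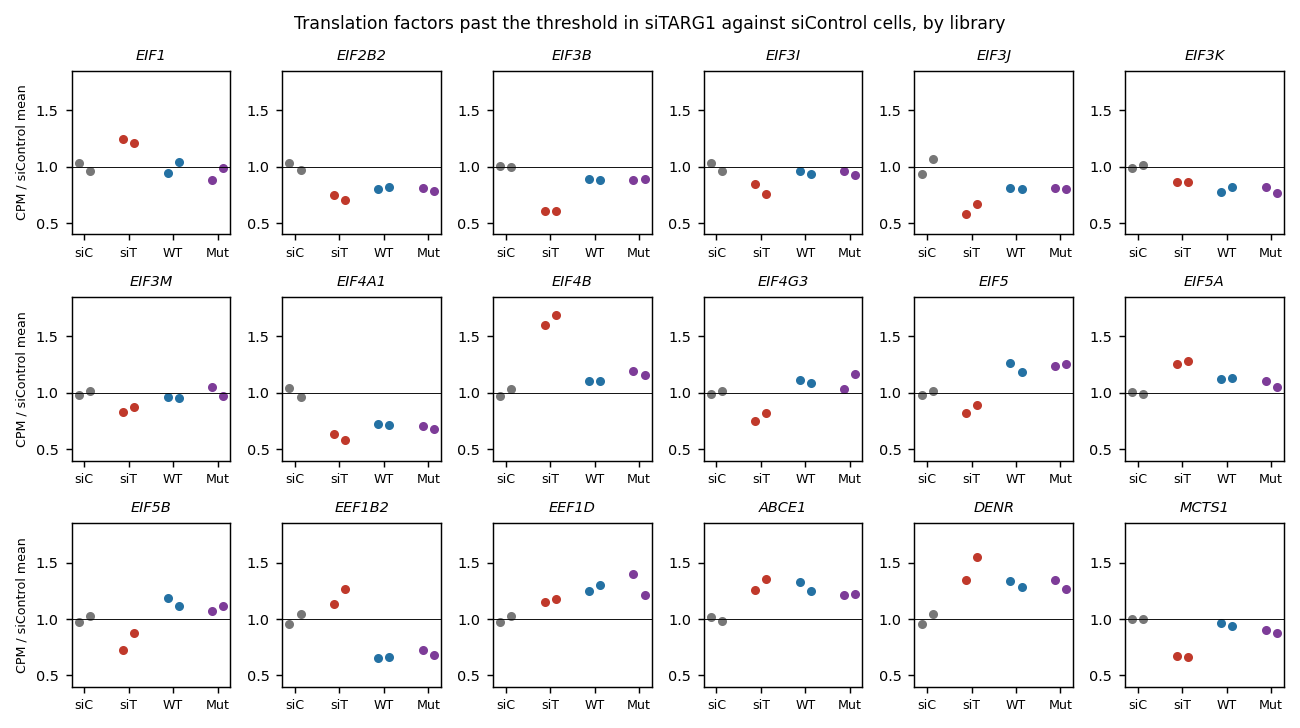
CPM of 18 translation factors called in siTARG1 against siControl cells, divided by the siControl mean (vertical axis), with 1 point per library in the groups siControl (siC), siTARG1 (siT), RACK1-WT (WT) and RACK1-Mut (Mut); EEF1A2 is left out. The siTARG1 points of EIF3B and MCTS1 lie below those of every other group, and those of EIF4B lie above.

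The second comparison asked whether mutation of the RACK1 MAR acceptor sites changed the same RNAs. RACK1 RNA itself had 1762 and 1898 CPM in RACK1-WT and 1397 and 1454 CPM in RACK1-Mut cells and was not called. Effects of RACK1 level and of the acceptor sites cannot be told apart in this comparison. None of 46 translation factors was called in RACK1-Mut against RACK1-WT cells by edgeR, against 0.00713% of all genes (1 gene), and none had an unadjusted p under 0.05, against 687 genes (4.9%). DESeq2 and limma on the RPKM also called 0 of the 46. Log2 fold changes ran from -0.12 (EEF1A2) to 0.11 (EEF1A1), with a median of -0.0048 and a median standard error of 0.072, and the smallest unadjusted p was 0.149. The libraries of the groups did not overlap for 7 factors that were higher and 9 that were lower, against 19.3% and 18.5% of all genes (37.8% together). With 2 libraries per group, changes of the size of the standard error were not detectable, and a p above the threshold does not show that the lines were equal.

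Several factors called in siTARG1 cells were compared by library in the RACK1 lines. EIF3B had 122.1 and 120.4 CPM in RACK1-WT and 120.6 and 121.4 CPM in RACK1-Mut cells, a log2 fold change of -0.0030 ± 0.062. EIF4B had 1025 and 1028 CPM against 1111 and 1076 CPM, a change of 0.091 ± 0.069. DENR had 161.3 and 154.8 CPM against 161.4 and 152.2 CPM (-0.011 ± 0.079), and MCTS1 had 71.4 and 69.5 CPM against 66.9 and 64.4 CPM (-0.10 ± 0.067). The RACK1-Mut libraries lay above those of RACK1-WT for EIF4B and below them for MCTS1, and the groups overlapped for EIF3B and DENR. EIF3J had 93.1 and 91.9 CPM in RACK1-WT and 92.7 and 92.0 CPM in RACK1-Mut cells (-0.0014 ± 0.085). The row joined to EIF4A1 had 849.3 and 837.3 CPM against 824.8 and 793.0 CPM (-0.060 ± 0.072), and EEF1A2 had 7.41 and 7.95 CPM against 6.15 and 7.99 CPM (-0.12 ± 0.14).

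All 5 termination and recycling factors had negative values, from -0.010 (GSPT1) to -0.10 (MCTS1), and all 9 TOP factors had positive values, with a median of 0.068. EEF1A1 had 18590 and 18370 CPM in RACK1-WT and 21170 and 18710 CPM in RACK1-Mut cells, and summed elongation factor RNA was 24370 and 24390 CPM against 27560 and 24620 CPM. RACK1-Mut replicate 1 was the high library in both. Without it 5 of the 9 TOP factors were positive and their median was 0.0069, and EEF1D (-0.073), EEF1G (-0.00078), EIF3E (-0.062) and EIF3H (-0.030) turned negative.

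The difference between the siTARG1 effect and the RACK1-Mut effect was tested in the same fit. It was called for 14 of 46 translation factors, 6 higher and 8 lower, against 32.4% of all genes (16.1% higher and 16.3% lower). Positive differences were found for EIF4B (0.62), DENR (0.55), ABCE1 (0.46), EIF5A (0.40) and EIF1 (0.38), and also for EEF1A2, whose value rests on 1 count in each siControl library and is not given. Negative differences were found for EIF3B (-0.72), EIF3J (-0.67), EIF4A1 (-0.65), MCTS1 (-0.48), EIF2B2 (-0.44), EIF4G3 (-0.34), EIF3I (-0.32) and EIF3M (-0.31). The EIF4A1 value is that of the joined row, and in its few coding-sequence reads it was -0.0158 and not called. Those reads cannot decide the difference for EIF4A1 alone. EIF1 also lost its call in coding-sequence reads. For EIF3B the edgeR adjusted p of the difference was 3.3e-05, and for EIF4B 0.000249. The calls of EIF1, EIF3I, EIF3M and EIF4G3 each depended on more than 1 library, with values of 0.30 to 0.33 for EIF1, -0.33 to -0.25 for EIF3I, -0.33 to -0.25 for EIF3M and -0.36 to -0.27 for EIF4G3 where the call was lost. Leaving out any RACK1 library ended 1 to 4 of the 14 calls, and leaving out any siRNA library ended 1 to 3.

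The third comparison set RACK1-WT against siControl cells. These groups differ in cell line, Dox, the RACK1 shRNA, the HA-tagged RACK1 and siRNA transfection, and the effects of these cannot be told apart. Of 46 translation factors 14 were higher, EEF1A2 with its 1 count in each siControl library among them, and 15 lower, against 63.3% of all genes called (31.9% higher and 31.4% lower), so the share of factors was close to that of genes in general. The median log2 fold change was 0.0033, and -0.016 over all genes. The libraries did not overlap for 20 factors that were higher and 22 that were lower, against 41.1% and 42.3% of all genes (83.4% together). The authors' RPKM with limma gave 26 higher and 0 lower, on a scale where the median of all genes was shifted by 0.37, and centring each library on its median gene gave 13 higher and 14 lower. This comparison and that of siTARG1 share the siControl libraries, so values of the same gene in both are set side by side and not counted as agreement.

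EIF4A2 had the largest rise among factors with substantial counts. It had 553.3 and 567.7 CPM in siControl, 1049 and 1023 CPM in RACK1-WT and 1077 and 982.7 CPM in RACK1-Mut cells, and the log2 fold change of RACK1-WT against siControl was 0.89 ± 0.072 (edgeR adjusted p = 1.25e-07). Coding-sequence and 3′ UTR reads gave 0.90 and 0.85. The row joined to EIF4A1 was lower, with 849.3 and 837.3 CPM in RACK1-WT and 824.8 and 793.0 CPM in RACK1-Mut cells (-0.47 ± 0.072). Its few coding-sequence reads gave 0.022, which cannot decide the change of EIF4A1 alone. EIF4A2 made up 31.3% and 33.6% of the summed helicase CPM in siControl, 41.0% and 44.7% in siTARG1, 55.3% and 55.0% in RACK1-WT and 56.6% and 55.3% in RACK1-Mut cells, with the joined row counted as EIF4A1. Per kilobase EIF4A2 was at rank 8 of the 46 factors in siControl and at rank 3 in RACK1-WT cells. Joined rows were ranked by their joined length.

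**Figure D3:**
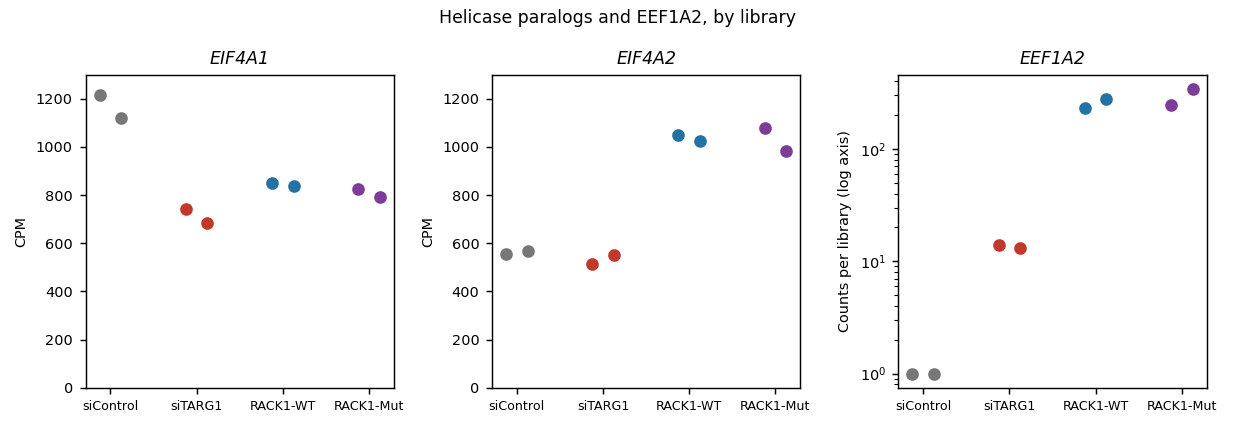
CPM of EIF4A1 (row joined with SENP3) and EIF4A2 and counts of EEF1A2 on a log axis (vertical axes) in the 2 libraries of each group (horizontal axis), 1 point per library. EIF4A2 lies between 514.9 and 567.7 CPM in the siRNA groups and between 982.7 and 1077 CPM in both RACK1 groups, and EEF1A2 goes from 1 count in each siControl library to between 233 and 344 counts in the RACK1 libraries.

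EEF1A2 counts were 233 and 279 in RACK1-WT cells and 249 and 344 in RACK1-Mut cells, where siControl cells had 1 in each library. Scaled to library size RACK1-WT was 271 times siControl, with an exact 95% counting interval of 74.6 to 2243, and 24 times siTARG1, with an interval of 16.3 to 36.7. At 6.15 to 7.99 CPM in the RACK1 lines it was still the lowest of the 46 factors per kilobase. EEF1A1 was lower in RACK1-WT than in siControl cells, with 18590 and 18370 CPM against 23070 and 22790 CPM (-0.31 ± 0.082, edgeR adjusted p = 0.00432).

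EEF1G and EEF1B2 of the exchange complex also fell. EEF1G had 3909 and 3972 CPM in siControl, 2431 and 2500 CPM in RACK1-WT and 2705 and 2463 CPM in RACK1-Mut cells (RACK1-WT against siControl, -0.68 ± 0.073, edgeR adjusted p = 2.11e-06). Its row also holds TUT1, and 13.3% of its reads fall in a single kind of region. EEF1B2 had 471.4 and 481.7 CPM in RACK1-WT and 526.0 and 490.4 CPM in RACK1-Mut cells against 694.5 and 754.1 CPM in siControl cells (-0.60 ± 0.077, edgeR adjusted p = 1.04e-05). EEF1D was higher instead, with 289.6 and 302.2 CPM in RACK1-WT cells (0.35 ± 0.076), and EEF2 was not called (-0.15). Summed elongation factor RNA was 24370 and 24390 CPM in RACK1-WT against 30850 and 30720 CPM in siControl cells.

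Of 13 eIF3 subunits 7 were lower and 2 higher, a share called close to the 63.3% of all genes (31.4% lower and 31.9% higher). EIF3C had 844.3 and 882.2 CPM in siControl against 646.2 and 677.5 CPM in RACK1-WT cells (-0.38 ± 0.073, edgeR adjusted p = 0.000386), and EIF3K had 726.6 and 762.2 CPM in RACK1-WT cells (-0.33 ± 0.068, edgeR adjusted p = 0.000818). EIF3L (-0.28), EIF3F (-0.28), EIF3J (-0.31), EIF3G (-0.19) and EIF3B (-0.18) were lower by smaller margins, and each lost its call without at least 1 library. EIF3H had 313.7 and 326.9 CPM in siControl against 391.1 and 395.0 CPM in RACK1-WT cells (0.30 ± 0.066, edgeR adjusted p = 0.00138). EIF3E had 458.4 and 479.4 CPM against 539.3 and 540.3 CPM (0.20), a call that was also lost with a library left out.

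The factors called on chromosomes 8 and 3 were higher, as were most genes of the same arms. EIF3E, EIF3H and EEF1D lie on the long arm of chromosome 8, where 196 of 304 genes tested (64.5%) were higher in RACK1-WT than in siControl cells and the median log2 fold change was 0.54. EIF4A2 and EIF4G1 lie on the long arm of chromosome 3, where 218 of 406 genes (53.7%) were higher and the median was 0.30, against 31.9% higher among all genes. Medians of the genes within 5 Mb were 0.90 around EIF3H, 0.65 around EIF3E, 0.42 around EEF1D and 0.35 around EIF4A2 and EIF4G1, so EIF3H and EIF3E rose less than their neighbours and EIF4A2 rose more. On the short arm of chromosome 8 the median was 0.064. These chromosome arms were chosen after the values were seen, and their part in the levels of the factors was not tested.

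Over 45 translation factors without EEF1A2, the log2 fold change and the median of the neighbouring genes had a Pearson correlation of 0.47 and a Spearman correlation of 0.47 in this comparison. The same measures were -0.05 and -0.09 for siTARG1 against siControl and -0.14 and -0.14 for RACK1-Mut against RACK1-WT cells. The factors of a comparison share its libraries, and some share neighbours, so these are descriptions across genes.

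**Figure D4:**
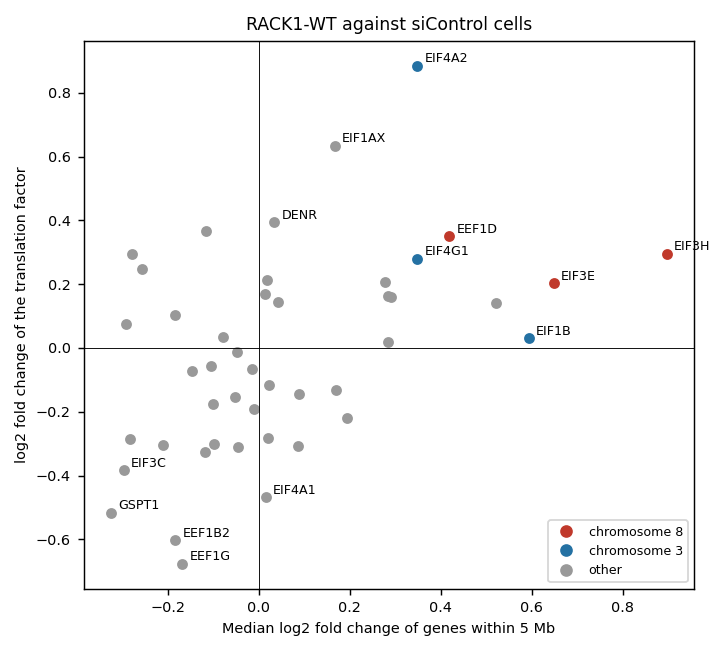
Log2 fold change of 45 translation factors in RACK1-WT against siControl cells (vertical axis) against the median log2 fold change of the genes tested within 5 Mb of each (horizontal axis), 1 point per factor, EEF1A2 left out. Factors on chromosome 8 (red) have neighbour medians of 0.42 to 0.90 and changes of 0.20 to 0.35, while EEF1G and EEF1B2 are lower than their neighbours.

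EIF1AX, which with EIF1 opens the small subunit for scanning, had 69.0 and 77.4 CPM in siControl, 117.1 and 109.9 CPM in RACK1-WT and 122.3 and 116.3 CPM in RACK1-Mut cells (RACK1-WT against siControl, 0.63 ± 0.098, edgeR adjusted p = 6.8e-05). Its 3′ UTR reads went from 40.2 and 47.5 CPM in siControl to 84.5 and 75.6 CPM in RACK1-WT cells, a log2 difference of 0.87, while its coding-sequence reads differed by 0.20. By mean CPM the regions gave the same sign for 26 of 28 factors called with reads in both, and EIF3E and EIF3G were the exceptions. Among the 26, the few coding-sequence reads of the row joined to EIF4A1 gave only -0.0142 by mean CPM. In the edgeR fit of coding-sequence reads the value of that row was 0.0215.

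GSPT1 had 203.6 and 208.8 CPM in siControl against 143.6 and 144.6 CPM in RACK1-WT cells (-0.52 ± 0.070, edgeR adjusted p = 1.87e-05). ABCE1 had 159.3 and 149.0 CPM in RACK1-WT cells (0.37 ± 0.069) and DENR 161.3 and 154.8 CPM (0.39 ± 0.080), both above siControl. EIF5 had 368.8 and 345.1 CPM (0.29 ± 0.069), the opposite side of siControl from its siTARG1 value of -0.22. EIF2B2 had 74.4 and 76.3 CPM (-0.30 ± 0.071). MCTS1 was not called (-0.066).

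Of the 29 calls 13, some of them already given above, were each lost when at least 1 library was left out. EIF5A (0.16 to 0.19), EIF2S3 (0.15 to 0.18) and EIF3B (-0.19 to -0.16) lost the call without any 1 of the 4 libraries. EIF3E (0.18 to 0.21) and EIF4G2 (-0.22 to -0.15) lost it without siControl replicate 1 or RACK1-WT replicate 2, and also without RACK1-WT replicate 1 and siControl replicate 2, respectively. EIF4H (0.20 to 0.22) lost it without either RACK1-WT replicate or siControl replicate 2. EIF2B3 (0.19 and 0.14) and EIF4E (-0.22 and -0.14) lost it without RACK1-WT replicate 2 and siControl replicate 2. EIF3G lost it without RACK1-WT replicate 1 (-0.14) or siControl replicate 2 (-0.13), EIF3F without RACK1-WT replicate 1 (-0.22), EIF3J without siControl replicate 2 (-0.20), EIF3L without siControl replicate 1 (-0.22) and EIF4G1 without RACK1-WT replicate 2 (0.25). With all libraries EIF4G1 had 459.8 and 453.0 CPM in siControl against 542.6 and 565.6 CPM in RACK1-WT cells, EIF4H 287.2 and 284.8 against 333.9 and 329.3 CPM, and EIF4G2 1229 and 1226 against 1106 and 1001 CPM. EIF4E had 132.9 and 165.4 against 127.8 and 113.4 CPM, EIF2B3 27.3 and 23.1 against 28.9 and 31.1 CPM, and EIF2S3 399.0 and 395.0 against 446.2 and 440.9 CPM. EIF3L had 440.9 and 408.0 against 346.6 and 350.5 CPM, EIF3F 408.6 and 388.4 against 314.1 and 341.8 CPM, and EIF3G 279.2 and 303.0 against 245.9 and 264.3 CPM. EIF3J had 93.1 and 91.9 CPM and EIF5A 347.1 and 349.3 CPM in RACK1-WT cells. The groups did not overlap for these 11 factors, as for 83.4% of all genes tested.

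Regulators of the factors were followed through lists of related genes. In siTARG1 against siControl cells 8 of 18 initiation regulators rose and 3 fell, with a median log2 fold change of 0.15, where 23.5% of all genes rose, 23.1% fell and the median was 0.0073. EIF4EBP1, the inhibitor that holds EIF4E off EIF4G, had 238.6 and 214.5 CPM in siControl and 66.7 and 64.6 CPM in siTARG1 cells, with a log2 fold change of -1.79 ± 0.074 (edgeR adjusted p = 8.09e-10), against 160.6 and 172.1 CPM in RACK1-WT cells. Its paralog EIF4EBP2 rose by 0.25, and the row shared by EIF4EBP3 and ANKHD1 fell by 0.47. The eIF2 kinase EIF2AK4 rose from 75.3 and 76.2 CPM to 127.2 and 123.9 CPM (0.73 ± 0.067), and the eIF4A inhibitor PDCD4 from 61.5 and 66.2 CPM to 91.0 and 114.7 CPM (0.69 ± 0.095). RPS6KB1, the kinase that phosphorylates EIF4B among others, rose by 0.68 and its paralog RPS6KB2 fell by 0.29.

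The counts of the next 4 lists are read against the same 46.6% of all genes called. Of 12 alternative factors and paralogs tested 5 rose and 1 fell in siTARG1 cells, led by EIF5A2, which had 3.54 and 5.04 CPM in siControl and 9.48 and 11.1 CPM in siTARG1 cells (1.28 ± 0.16). DDX3X, a helicase of structured leaders, fell by 0.47. Of 10 poly(A) binding genes 4 rose and 0 fell, with PABPC4 at 65.6 and 70.4 CPM against 122.2 and 114.3 CPM (0.80 ± 0.072). Among 15 modification enzymes 1 rose, DPH7 of diphthamide synthesis on EEF2 (0.30), and 1 fell, DHPS, the first enzyme of hypusine synthesis on EIF5A (-0.38). Mitochondrial translation factors had 2 rises, MTRF1 (0.50) and TSFM (0.28), and 2 falls, MTIF3 (-0.50) and MTIF2 (-0.26), among 10.

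In RACK1-Mut against RACK1-WT cells 0 of the 65 genes tested in these 5 lists was called by edgeR. In RACK1-WT against siControl cells, where 63.3% of all genes were called, 31.9% higher and 31.4% lower, 7 initiation regulators rose and 5 fell of 18, among them PDCD4 (1.23) and EIF2AK2, the kinase activated by double-stranded RNA (-0.73). Modification enzymes had 4 rises and 9 falls of 15, with DPH6 at 1.25 and EEF1AKMT1 at -0.76. Alternative factors had 5 rises and 4 falls of 12, poly(A) binding genes 4 and 3 of 10, and mitochondrial factors 2 and 2 of 10. The alternative factors include EIF3CL, with 836.2 and 873.8 CPM in siControl and 639.6 and 671.4 CPM in RACK1-WT cells. Its counts are nearly those of EIF3C, so it is not separate from the eIF3 count. The 5 rises of the alternative factors included EIF5A2 (1.48) and EIF4E3. EIF4E3 had 2 and 3 counts in the siControl and 87 and 81 counts in the RACK1-WT libraries. It entered the test only through the RACK1 groups, where it is high, so its fold change is not given.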

How the data were processed

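RNA-seq of 8 OVCAR3 libraries was analysed from the deposited tables. The authors removed rRNA and contaminant reads with Bowtie 1.1.2, aligned the remainder to a GRCh37 transcriptome with Gencode release 24 using TopHat2 2.1.1, and used Plastid to count, for each gene and region, alignments that were 25 to 51 bases long. The deposited values are estimated counts, not whole and not normalized, and RPKM, which the authors scaled by region length and by all alignments of a library. Reads with several matches were kept, so counts of paralogs and of overlapping genes are uncertain. Column values of the authors' own comparisons were not part of these tables.

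Of 36595 transcript names 94.7% matched Gencode annotation on GRCh37. Exon counts were rounded and tested with edgeR 4.0.16 (quasi-likelihood, TMM, filterByExpr, R 4.3.3) in 1 fit of the 4 groups with 4 residual degrees of freedom, and p-values were adjusted by Benjamini-Hochberg over 14024 genes. CPM used TMM library sizes. RPKM was tested with limma 3.58.1 on log2(RPKM + 0.1), which understates changes of low genes. DESeq2 1.42.0, which the authors name, was an alternative. The test was also run on simulated counts in which few genes changed, unlike siTARG1 or RACK1-WT against siControl. That run does not check the calls of comparisons in which many genes moved. Depth leaves counting error small for all members but EEF1A2, and 2 libraries per group limit the precision. The study states that its sequencing used independent biological samples. The genes named are those past the threshold with their values, and their paralogs, as well as up to 3 genes each way per list. The members and lists were chosen with earlier results of these data known. Other alternatives left out a library, changed the filter, used coding-sequence reads or added a replicate block. The lone library of an arm was then assumed to vary like the other groups.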

Additional observations from a re-analysis of the deposited data

How the results depend on the processing

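With 2 libraries per group, calls near the threshold depended on single libraries: leaving out 1 library gave 15 to 18 of 46 translation factors for siTARG1 against siControl (19 with all), 20 to 23 for RACK1-WT against siControl (29 with all), 10 to 15 for the difference of effects (14 with all) and 0 for RACK1-Mut against RACK1-WT. RLE normalization, no filter and coding-sequence reads kept these counts within 1.5 times, as did DESeq2, at least 10 counts in every library, a fit of 4 libraries and summed rows for the 3 comparisons, in which alone they were run. The authors' RPKM with limma gave 9 for siTARG1 against siControl, and in RACK1-WT against siControl cells it turned EIF2B2 (0.131), EIF3B (0.256), EIF3C (0.0497), EIF3F (0.15), EIF3G (0.243), EIF3J (0.127), EIF3K (0.107), EIF3L (0.15), EIF4E (0.13), EIF4G2 (0.21) and EEF1A1 (0.122) positive, none of them called. RPKM scales by all alignments, and the median of all genes moved by 0.37. Coding-sequence reads reversed the row joined to EIF4A1 in RACK1-WT against siControl (0.0215) and that joined to EEF1G in RACK1-Mut against RACK1-WT cells (-0.00798). They were few, in RACK1-WT cells 65.53 and 61.15 CPM of the EIF4A1 row and 26.55 and 28.76 CPM of the EEF1G row. They therefore cannot decide the sign for EIF4A1 or EEF1G alone. Centred RPKM, added after the data were seen, reversed EIF3E in RACK1-Mut against RACK1-WT cells (-0.00507). The cause was not tested. With 1 library left out, values in RACK1-Mut against RACK1-WT cells ran from -0.0732 (without RACK1-Mut replicate 1) to 0.136 for EEF1D, from -0.0621 to 0.0775 for EIF3E, from -0.0302 to 0.0688 for EIF3H and from -0.000779 to 0.134 for EEF1G.

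The sample titles give a replicate number and do not state pairing. Across genes, the deviations of same-numbered libraries had a correlation of 0.507 for siControl and siTARG1 and 0.032 for RACK1-WT and RACK1-Mut. Same-numbered siRNA libraries thus shared part of their deviations, and the main fit had no replicate block. With the replicate number as a block 19, 0 and 28 factors were called in the 3 comparisons, with a block within each experiment 21 (EIF4E as higher and EIF6 as lower were gained) and 0, and 16 for the difference. The crossed pairing of the experiments gave 31 for RACK1-WT against siControl.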
